A study of Mus musculus with 16 samples.

Results

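The subject is how strongly each messenger RNA was covered by ribosomes in mouse embryonic stem cells without Nat1. Nat1, listed in the table under its gene symbol Eif4g2, belongs to the eIF4G family of translation initiation factors. It binds eIF3 and eIF4A but lacks the part of eIF4G that binds the cap-binding protein eIF4E. Ribosome profiling sequences the short pieces of mRNA that a translating ribosome shields from nuclease, called ribosome-protected fragments (RPF) or footprints. Set against total RNA from the same culture, the footprints of a gene give a measure of how heavily its mRNA is loaded with ribosomes.

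The series holds 16 libraries from 8 cultures, each culture with 1 RPF and 1 total RNA library. There were 3 Nat1-/- clones (B12, B2 and C3), 3 Nat1+/- clones (A7, B4 and C1) and 2 cultures of the wild-type (WT) embryonic stem cell line RF8, all grown on gelatin with LIF, the cytokine that keeps these cells undifferentiated. Each Nat1-/- library is 1 clone, so the spread between replicates is a spread between clones, and the 2 WT replicates are cultures of 1 line. The labels do not say how the Nat1 alleles were made.

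For each Nat1-/- culture the log2 of (RPF + 1) over (total RNA + 1) was taken per gene, for the genes whose mean over the 3 cultures reached 50 normalised reads in both assays. Of 21977 listed genes, 10328 passed. Another 735 had enough RNA but a mean RPF under 50, 149 had enough footprints but a mean total RNA under 50, and 10765 were under 50 in both. The authors scaled the RPF and total RNA libraries separately, so the raw 0 of the ratio has no meaning. Each culture's median over the 10328 genes was therefore subtracted, and every ratio below is a log2 value relative to the median gene, called the relative ratio. It compares genes with one another and says nothing of the absolute rate of translation. A gene is called more or less loaded below by this ratio alone. The part of each mRNA counted in each assay is not known, and lengths of coding and untranslated parts were not available. The part of such lengths in the ratio of a gene was not tested.

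The Nat1-/- RPF libraries held 19.2, 23.2 and 17.5 M reads (B12, B2, C3), and the total RNA libraries held 42.5, 16.4 and 14.2 M reads. The 3 reads that a count of 0 allows corresponded to 2.66 to 3.42 normalised RPF reads and 1.55 to 4.47 normalised total RNA reads. All 8 embryonic stem cell markers, Pou5f1, Sox2 and Nanog among them, were at 50 or more in the total RNA of each clone, with summed levels of 175900, 188800 and 184500. Of 11 fibroblast markers, 9 were under 50 in each clone, their sum was 161 to 174, and Postn and Lum were listed at 0. The 5 primitive endoderm markers summed to 74.6 to 118, and 3 of 5 trophoblast and 3 of 4 neuroectoderm markers reached 50 in all 3 clones (sums of 792 to 834 and 853 to 953). In bulk libraries such as these, fewer cells of a type and less RNA per cell cannot be told apart.

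Eif4g2, the gene that the genotypes target, was among the least loaded. It had 1089, 1114 and 922 normalised RPF reads in B12, B2 and C3, against 12250, 8795 and 5085 normalised reads of total RNA. Its relative ratio was -3.15, -2.65 and -2.16, below the median gene in each clone. The mean of -2.65 (SE 0.16, n = 3 clones) was 6.28-fold below the median gene and was called (limma, adjusted p = 3.54e-05). In RPF alone the groups did not overlap, since WT had 17670 and 13860 and Nat1+/- had 10260, 7608 and 7275. RNA and footprints of Eif4g2 were thus still listed in every Nat1-/- library, and counts per gene do not show which part of the mRNA they came from.

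Across all genes the relative ratio covered a wide range. The mean of the 3 clones lay between -0.67 and 0.62 from the 25th to the 75th percentile of genes and between -1.77 and 1.34 from the 5th to the 95th. A gene was called when its ratio was more than 2-fold from that of the median gene (limma's treat test, two-sided, adjusted p under 0.05). By this rule 536 genes (5.19%) were higher and 1031 (9.98%) lower, together 15.2% of genes. The low side was the longer one: 61 genes were over 8-fold below the median gene and 5 were over 8-fold above it. The balance of the calls depends on the reference. When the libraries were instead set to equal sums, the median gene came to lie at -0.24, and 249 genes were called higher and 1464 lower.

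**Figure D1:**
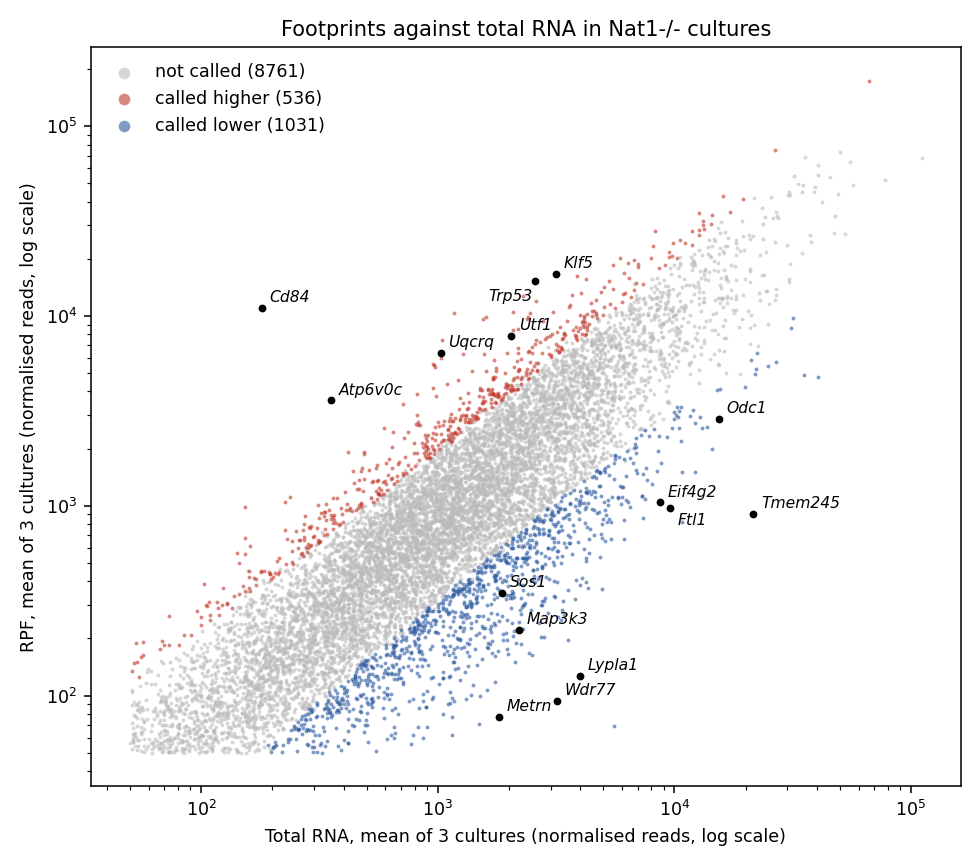
Mean RPF (vertical) against mean total RNA (horizontal) in the 3 Nat1-/- cultures, in normalised reads on log axes, 1 point per gene for 10328 genes. Red points are the 536 genes called higher, blue points the 1031 called lower and black points named genes, with Cd84 and Atp6v0c above the cloud and Wdr77, Lypla1 and Tmem245 below it.

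The 3 clones ordered the genes much alike. Pearson's r across genes was 0.96 between B12 and B2, 0.92 between B12 and C3, and 0.96 between B2 and C3. These are descriptions across genes, which are not independent replicates. The SD of a gene over the 3 clones had a median of 0.17 and exceeded 0.5 for 326 genes, and 8761 genes (84.83%) lay on the same side of the median gene in all 3.

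The highest ratios belonged to a mixed group of genes. The rule took the 10 highest called genes, passing over predicted genes. It gave Cd84, Atp6v0c, Hist1h2ag, Hist1h2af, Uqcrq, Zfp442, Hist1h2ap, Hist2h4, Trp53 and Hist1h2ah, with means from 2.87 to 5.25. Each was above 2 in each clone.

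Cd84, a cell surface receptor of immune cells, had 27750, 3774 and 1602 normalised RPF reads in B12, B2 and C3 with 197, 161 and 185 of total RNA. Its footprints differed by more than 10-fold between clones while its RNA hardly moved. The relative ratio of 7.48, 4.87 and 3.42 (mean 5.25, SD 2.06, adjusted p = 3.24e-04) had the largest spread of any gene named by the rule. The Nat1-/- clones overlapped WT, at 6.71 and 6.03, and Nat1+/-, at 3.54, 3.78 and 4.19.

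Atp6v0c, a membrane subunit of the vacuolar proton pump, had 3125, 5784 and 1871 RPF reads and 285, 402 and 377 of total RNA. Its mean relative ratio was 3.53 (SE 0.24, adjusted p = 3.3e-05), or 11.5-fold above the median gene. Uqcrq, a small subunit of respiratory complex III, had 7975, 6077 and 5039 RPF reads and 1139, 1360 and 586 of total RNA. Its mean was 3.02 (SE 0.15, adjusted p = 8.64e-06). Both genes were above the median gene in all 8 cultures of the study.

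Trp53, which encodes the tumour suppressor p53, had 17250, 15960 and 12440 RPF reads with 2859, 3056 and 1816 of total RNA. The clones were close together at 2.94, 2.71 and 3.08 (mean 2.91, SE 0.10, adjusted p = 1.41e-06), which put its mRNA 7.52-fold above the median gene. WT (2.72 and 2.55) and Nat1+/- (2.80, 2.69 and 2.77) gave similar values, and neither difference passed the test (0.28 ± 0.12 SE from WT, adjusted p = 0.351, and 0.16 ± 0.11 from Nat1+/-, adjusted p = 0.307). Zfp442, 1 of the few zinc finger genes at this end, had 637, 1168 and 1148 RPF reads and 173, 136 and 152 of total RNA, with a mean of 2.95 (SE 0.20, adjusted p = 6.77e-05).

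The lowest ratios were more even between clones. The 10 lowest called genes under the same rule were Wdr77, Lypla1, Tmem245, Metrn, Usp31, BC030336, Cmtm4, Gid4, Cnpy1 and Zbtb37, with means from -4.75 to -3.56. A predicted gene, Gm4631, was lower still at -6.05 and was passed over by the rule.

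Wdr77, a partner of the arginine methyltransferase PRMT5, had 3794, 2937 and 2825 normalised reads of total RNA but only 111, 86.2 and 83.2 RPF reads. Its relative ratio was -4.74, -4.75 and -4.76, the SD over the clones was 0.01, and its mRNA lay 26.9-fold below the median gene (adjusted p = 1.27e-07). Lypla1, which removes palmitate from proteins, had 5455, 3334 and 3204 reads of total RNA with 148, 131 and 100 RPF reads. Its mean was -4.62 (SE 0.12, adjusted p = 3.67e-07). Both genes were also low in WT and Nat1+/-, between -5.67 and -4.15.

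Tmem245 had the most RNA of the 10, at 26680, 23430 and 14500 reads, with 842, 697 and 1171 RPF reads. Clone C3 stood apart, with a relative ratio of -3.32 beside -4.64 and -4.74 in B12 and B2. Metrn, a secreted factor of glia, had 2184, 1922 and 1337 reads of total RNA and 91.8, 78.2 and 62.7 RPF reads, with a mean of -4.19 (SE 0.11, adjusted p = 3.67e-07). Gid4, the substrate receptor of a ubiquitin ligase, had 2782, 2536 and 2159 reads of total RNA and 177, 181 and 133 RPF reads, with a mean of -3.60 (SE 0.10, adjusted p = 6.71e-07). The other 5 had 945 to 4382 reads of total RNA and 51.5 to 211 RPF reads per clone. The calls of these 20 genes and of Eif4g2, Map3k3 and Sos1 held in each alternative analysis that included them. With a minimum mean of 200, Cd84, Zfp442 and all of the 10 lowest except Tmem245 were not tested.

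**Figure D2:**
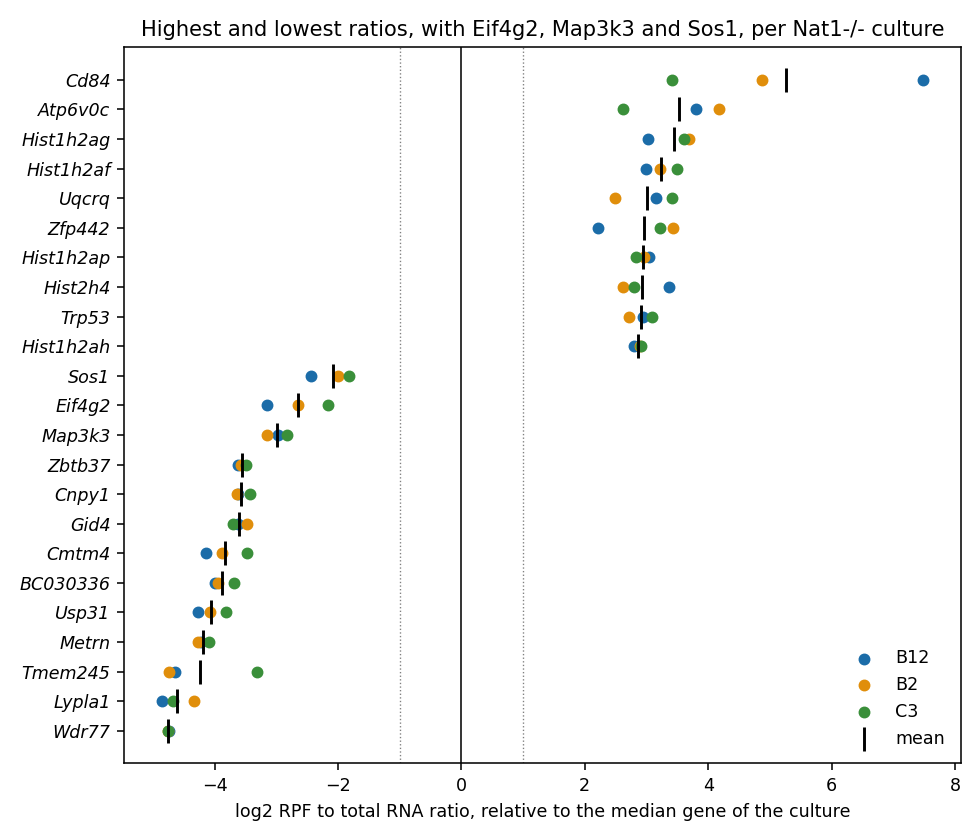
Relative log2 ratio of RPF to total RNA (horizontal) of the 10 highest and 10 lowest named genes, with Eif4g2, Map3k3 and Sos1 (vertical). Coloured points are the 3 Nat1-/- cultures, the black bar is their mean, and dotted lines mark a 2-fold distance from the median gene. Wdr77 is alike in all 3 clones, and Cd84 differs most.

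Genes just outside the limit of 50 were not tested. Aifm3 (mean RPF 49.99) and Mtmr11 (49.98) were the nearest left out for footprints, and Casq2 and Kcnj12 (50.05) were the nearest kept. For total RNA, Magee1 (49.9) and Apobec2 (49.9) were left out and Ticam1 (50.2) and Thpo (50.9) were kept. Among genes left out, and named after their values were seen, Tmem72 had a mean of 2398 reads of total RNA with 22.8 RPF reads. Svep1 had the opposite, with 989, 1639 and 351 RPF reads and 6.73, 5.33 and 8.95 of total RNA.

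The histones were the most loaded of the gene lists examined. Replication-dependent histone mRNAs are made in S phase and end in a stem-loop in place of a poly(A) tail. Of 57 measured members, 29 were called higher and none lower, beside 5.19% and 9.98% of all genes, and 56 had a mean above the median gene. B12 had a list median of 1.94, B2 of 1.16 and C3 of 1.18. H3 and H4 genes had the highest median ratios, 1.63 and 1.72, with 7 of 10 and 7 of 12 called higher. H2B genes had the lowest, 1.12, with 4 of 15.

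Hist1h2ag had 7869, 13800 and 9444 RPF reads with 1222, 1341 and 963 of total RNA and a mean ratio of 3.44 (SE 0.13, adjusted p = 1.41e-06). Hist1h2ad was the only member with a mean below the median gene, at -0.59. Hist1h2bl spread most, with 1441, 496 and 309 RPF reads against 437, 398 and 495 of total RNA. The list's high value in B12 went with the deepest total RNA library of the 3 clones, and WT replicate 1 (42.6 M reads of total RNA) was as high at 1.96. WT replicate 2, also deep at 33.6 M reads, was at 1.02, near the Nat1+/- clones (0.94, 1.04 and 1.01). The part of depth in this was not tested. Histone genes are near-identical copies, so the split of reads among them is uncertain.

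Genes for the energy-producing machinery of mitochondria also stood high when they were encoded in the nucleus. Of 81 measured genes of the respiratory chain and ATP synthase, 25 were called higher and 1 lower, beside 5.19% and 9.98% of all genes. With equal library sums 12 were called higher. Of the 81, 78 had means above the median gene, and the list median was 1.34, 1.03 and 1.01 in B12, B2 and C3. Complex I held 14 of these 25, out of 37 measured, and the ATP synthase 6 of 17. Complex II had none called of 4, with a median of 0.90. Atp5j, an ATP synthase subunit, had 10980, 9686 and 8193 RPF reads with 3106, 2423 and 1646 of total RNA (mean 2.37, adjusted p = 8.29e-06). Ndufb4 of complex I reached 2.12. The 1 gene called lower was Cox7a2l, an assembly factor of respiratory supercomplexes, with 373, 187 and 188 RPF reads and 3179, 3167 and 3563 of total RNA (mean -3.47, adjusted p = 1.06e-05).

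The mRNAs encoded by the mitochondrial genome, which are translated by a separate ribosome inside the organelle, did not share this. Of 13 listed, 8 were measured, with 1 called higher and 2 lower, beside 5.19% and 9.98% of all genes. Their median was -1.01, -0.67 and -0.14, with mt-Atp8 called higher (1.42, adjusted p = 0.0166) and mt-Co1 (-2.72, adjusted p = 6.86e-06) and mt-Nd1 (-1.67, adjusted p = 0.0425) called lower. The clones differed in their RNA more than in their footprints. For mt-Nd1, total RNA was 9002, 4481 and 1577 and RPF 1268, 1271 and 620. The call of mt-Atp8 was lost without B2 (adjusted p = 0.201) and when libraries were set to equal sums (0.312), and that of mt-Nd1 was lost with DESeq2 (0.565).

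The mitochondrial ribosomal proteins, nuclear-encoded, lay between. Of 76 measured, 10 were called higher and none lower, beside 5.19% and 9.98% of all genes. With equal library sums 6 were called higher and 1 lower. Above the median gene were 68, with list medians of 0.93, 0.71 and 0.67. Mrpl22 was the highest at 2.03 and Mrpl33 the lowest at -1.26, which was not called.

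Complexes that fold and degrade proteins also stood above the median gene. All 36 measured proteasome subunits lay above the median gene, from Psma8 at 0.28 to Psmb2 at 2.07, and 14 were called higher, beside 5.19% of all genes. Psmb2, a core subunit, had 6829, 6046 and 4627 RPF reads against 1701, 1817 and 1641 of total RNA. That count of 14 fell to 5 without B2 and to 3 when the libraries were set to equal sums. The 7 listed subunits of the CCT chaperonin, which folds actin and tubulin, lay within 0.86 to 1.25, and none was called. Among 13 cytosolic chaperones Hsp90ab1 (1.72, adjusted p = 0.00362) and its co-chaperone Stip1 (1.68, adjusted p = 7.27e-04) were called higher, Hsp90ab1 not without B2 (adjusted p = 0.0962). Of 20 chaperones and folding enzymes of the endoplasmic reticulum, 4 were called higher, with Pdia3 (1.70), Calr (1.61) and Hspa5 (1.57) leading. The single lower call there was the oxidase gene Ero1lb (-1.49), lost without B2 (adjusted p = 0.269).

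All 20 cytosolic aminoacyl-tRNA synthetases, which charge tRNAs with amino acids, were above the median gene, from Vars (0.61) to Rars (1.53). The 3 called higher, beside 5.19% of all genes, became 1 without B2 or with equal library sums. Of 39 initiation factors 6 were called higher and none lower, beside the same 5.19% and 9.98%. The 6 became 3 without B2 and 2 with equal library sums. Eif5b, which joins the ribosomal subunits, had 9921, 11490 and 13030 RPF reads and 3615, 3821 and 3392 of total RNA, a mean of 1.99 (SE 0.10, adjusted p = 7.26e-05). Among the 16 measured genes of the eIF4G family and cap binding Eif4g2 alone was called, the next lowest being Eif4ebp2 (-1.05, adjusted p = 1.0) and the highest Pdcd4 (1.22, adjusted p = 0.101).

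**Figure D3:**
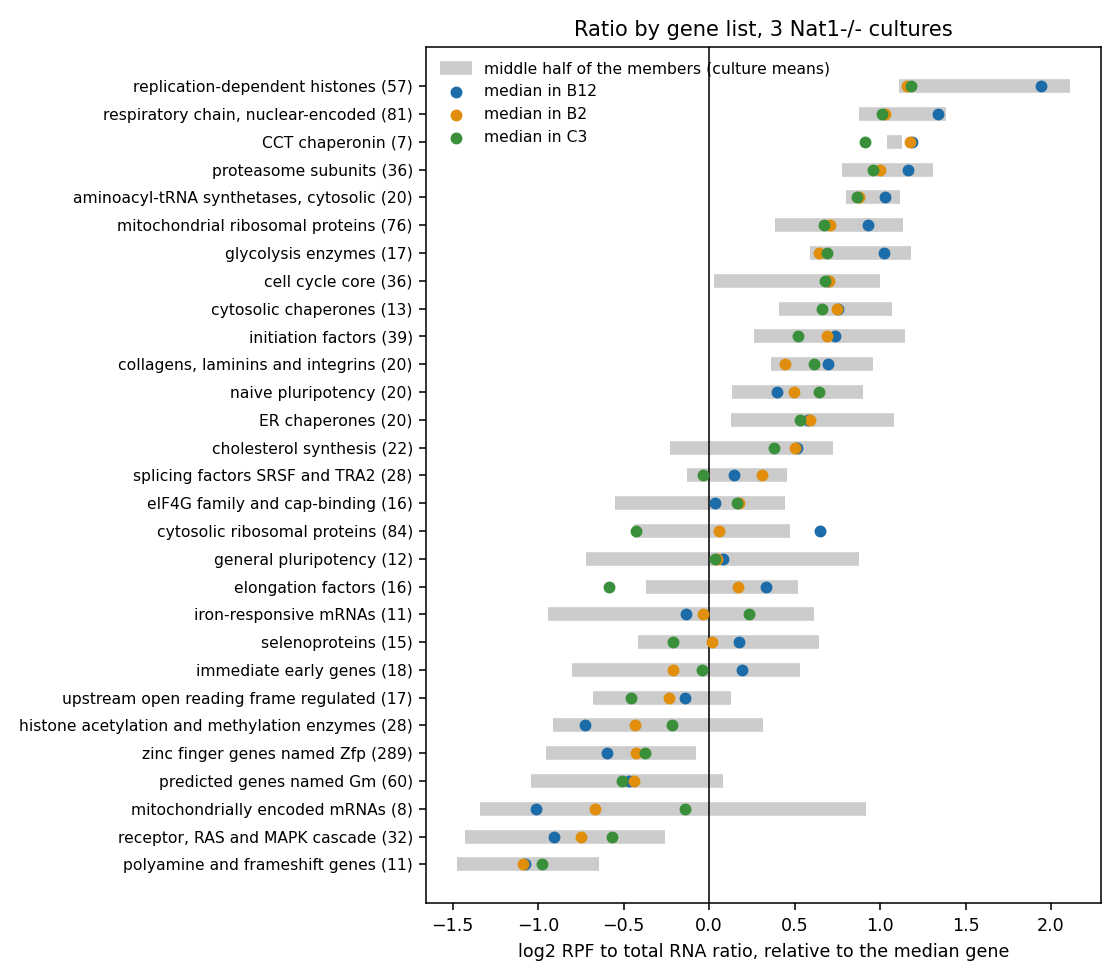
Relative log2 ratio of RPF to total RNA by gene list. Points are the list medians in B12, B2 and C3, grey bars run from the 25th to the 75th percentile of the members' means, and the number measured stands beside each name. Histones and the nuclear-encoded respiratory chain are highest, polyamine and RAS-MAPK genes lowest. The cytosolic ribosomal proteins lie near 0 with B12 and C3 far apart.

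The cytosolic ribosomal proteins behaved differently from these complexes. As a list they sat at the median gene: 1 of 84 measured was called higher (Rpl29, 1.86, adjusted p = 0.021) and 3 lower, among them Rpl13a (-2.60, adjusted p = 5.47e-04) and Rplp0 (-1.95, adjusted p = 8.23e-05). These counts stand beside 5.19% and 9.98% of all genes. The call of Rpl29 was lost without B2 (adjusted p = 0.0537). The count called lower was 9 without B12, 2 without C3, and 6 with equal library sums or with edgeR. Without C3, 4 were called higher. The position of the list shifted with the clone, however. B12 had a list median of 0.65, B2 of 0.06 and C3 of -0.43, and 75 of the 84 genes fell in that order, beside 22.71% of all genes. The median difference between B12 and C3 was 1.02. Over all genes it was 0.

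The shift lay in the footprints. Relative to the mean of the 3 clones, the list's median log2 RPF lay at 0.54, 0.03 and -0.57 for B12, B2 and C3, while its total RNA lay at 0.01, 0.08 and -0.08. The list of elongation factors and related genes moved alike, with medians of 0.33, 0.17 and -0.58. Eef1a1, which brings tRNAs to the ribosome, had 83340, 76290 and 44980 RPF reads with 102500, 117300 and 112200 of total RNA. Rps29 had 8141, 4346 and 2413 RPF reads with 15700, 20980 and 20060 of total RNA. In both genes the RPF fell from B12 to C3 with no fall in RNA.

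Many mRNAs of this class begin with a run of pyrimidines, known as a terminal oligopyrimidine tract, through which the mTOR pathway regulates their translation. RefSeq promoter sequences (GRCm38.p6, 250 bases before to 50 after the annotated start) were therefore searched, on the gene's strand and within 15 bases of the start, for a run of at least 7 C or T that begins with C. Of 63 ribosomal protein genes with a sequence 50.79% held such a run, beside 18.92% of 8008 members of all kinds and 15.57% of all 32841 promoters. These 5 windows are printed because these genes, among those with a run, fell most from B12 to C3. Each is 30 bases, 5′ to 3′ on the gene's strand, with the run nearest the annotated start in capitals. Other pyrimidine runs, such as the one that opens the Rps15a window, are left in lower case.

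Rps27: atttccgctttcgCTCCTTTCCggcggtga
Rpl35: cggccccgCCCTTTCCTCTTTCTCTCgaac
Rpl18: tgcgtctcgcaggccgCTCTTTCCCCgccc
Rps15a: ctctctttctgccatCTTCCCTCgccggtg
Rpl39: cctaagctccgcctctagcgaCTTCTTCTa

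These lie at chr3:90213634-90213663 (minus strand), chr2:39005117-39005146 (minus), chr7:45718056-45718085 (plus), chr7:118116133-118116162 (minus) and chrX:37085208-37085237 (minus). Rps27, with a run of 9 bases, went from 0.52 in B12 to -1.03 in B2 and -1.83 in C3. Rpl35, with a run of 18, went from 1.47 to 0.41 and -0.76. Ribosomal protein genes with a run had medians of 0.76, 0.29 and -0.30, and those without 0.43, -0.20 and -0.79, so both sets fell from B12 to C3. The rest of the genes showed no such step with a run (-0.05, -0.05 and -0.03). A match describes the letters in the window and does not show where transcription starts in these cells. Nor does a missing match show that an mRNA lacks such a tract, so this split cannot separate mRNAs with and without one. The part of such tracts in the fall was not tested.

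Set beside the other genotypes, the ribosomal protein list was highest in B12. The WT cultures had medians of 0.27 and 0.03 and the Nat1+/- clones of -0.78, -0.75 and -0.73, and C3 lay nearest to Nat1+/-. Of the 84 genes 54 were higher in Nat1-/- than in Nat1+/- (limma on the ratio over 8 cultures, adjusted p under 0.05) and none was lower, beside 8.52% and 11.2% of 10790 genes. None differed from WT by the same test, where 0 were higher and 1 lower at an unadjusted p under 0.05. The count against Nat1+/- was 12 without A7, 22 without B4, 21 without C1, 24 without B2, 43 without B12 and 75 without C3. Without the pairing of RPF and total RNA by culture it was 1. Total RNA was sequenced most deeply in B12 and both WT cultures (33.6 to 42.6 M reads, beside 13.2 to 16.4 M reads elsewhere). The part of depth was not tested.

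**Figure D4:**
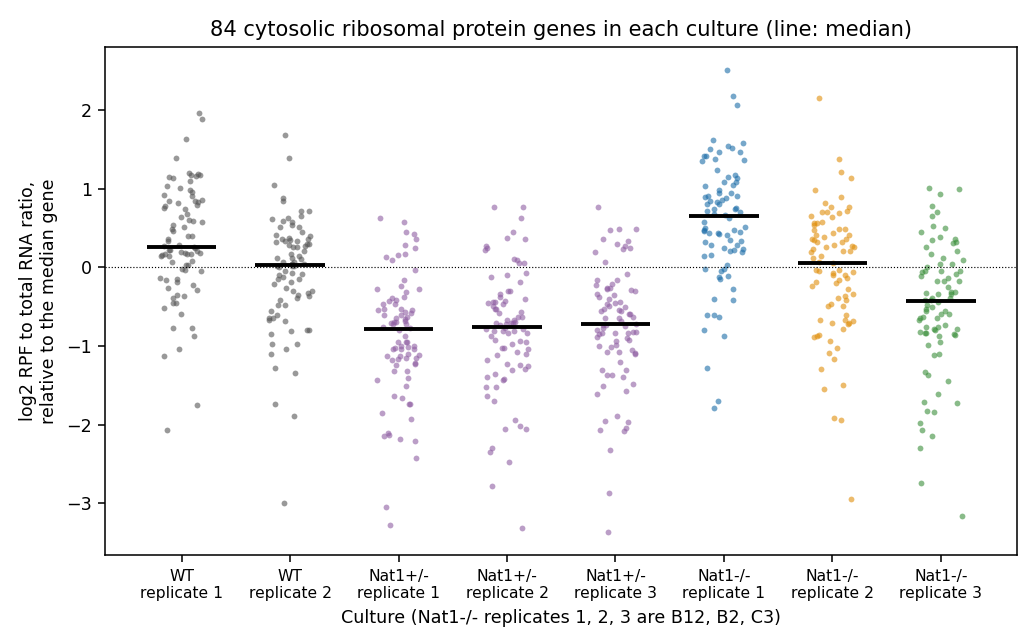
Relative log2 ratio of RPF to total RNA (vertical) of 84 cytosolic ribosomal protein genes in each of the 8 cultures (horizontal). Each point is a gene and each black line the median. The Nat1+/- medians lie between -0.78 and -0.73, and those of the 3 Nat1-/- clones between -0.43 and 0.65.

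Ferritin mRNAs varied between clones in the opposite direction. Ferritin stores iron, and its mRNAs carry an iron-responsive element to which repressor proteins bind when iron is scarce. Ftl1, the light chain, had 436, 540 and 1951 RPF reads in B12, B2 and C3 with 9939, 9525 and 9224 of total RNA. Its relative ratio was -4.16, -3.81 and -1.93 (mean -3.30, SD 1.20, adjusted p = 5.61e-04). Fth1, the heavy chain, had 794, 819 and 1245 RPF reads with 6840, 4184 and 2709 of total RNA, and ratios of -2.76, -2.02 and -0.81. Its call (adjusted p = 0.0422) was lost without B2 (0.071) and with DESeq2 (0.561).

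C3 was the highest of the Nat1-/- clones for both chains. For Ftl1, WT stood at -4.96 and -4.60 and Nat1+/- at -1.50, -2.61 and -2.43, so C3 lay among the Nat1+/- values and B12 and B2 between those and WT. The difference between Nat1-/- and Nat1+/- was -1.12 ± 0.48 (SE) and did not pass the test (adjusted p = 0.121). Alas1, the first enzyme of haem synthesis, was called higher, with a mean of 1.65 (adjusted p = 3.63e-04). The iron list as a whole had medians of -0.13, -0.04 and 0.24. Of its 11 genes 1 was called higher and 2 lower, beside 5.19% and 9.98% of all genes.

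Genes of polyamine metabolism formed the lowest list apart from the noncoding RNAs. Polyamines are small cations needed for growth, and several of these mRNAs are known to be controlled in translation, by upstream open reading frames or, for Oaz1, by a ribosomal frameshift. Of 11 measured, 3 were called lower and none higher, beside 9.98% and 5.19% of all genes. With the ratio of summed reads 5 were called lower, where 1480 of all 10328 genes were. Without the pairing of RPF and total RNA by culture none was called. The list median was -1.07, -1.09 and -0.98 in B12, B2 and C3. Odc1, the first enzyme of the pathway, had 3777, 2968 and 1823 RPF reads with 21410, 15240 and 9443 of total RNA and a mean of -2.09 (SE 0.09, adjusted p = 1.03e-05). Oaz1, the antizyme that inhibits it, had 1316, 842 and 532 RPF reads and 6412, 5652 and 3419 of total RNA (mean -2.24, adjusted p = 1.95e-05). Paox was at -1.72 (adjusted p = 0.00401), and Srm, spermidine synthase, at 0.60.

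Among 17 genes listed for regulation by upstream open reading frames, Ppp1r15b was the 1 called, lower at -1.43 (adjusted p = 0.00299, and 0.0683 without B2). Over all genes 5.19% were called higher and 9.98% lower. Atf4, the best known of them, had 7077, 5740 and 5368 RPF reads with 7083, 6677 and 6763 of total RNA, a mean of 0.14. Noncoding RNAs have no long coding sequence for ribosomes to read. Of the 2 measured, Snhg11 was at -2.61 (adjusted p = 1.62e-04) and Zfas1 at -1.68 (adjusted p = 0.0448, and 0.0816 without C3).

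Genes of receptor, RAS and MAPK signalling, the pathway that pushes embryonic stem cells towards differentiation, were low as a list. Of 32 measured, 10 were called lower and 1 higher, beside 9.98% and 5.19% of all genes. The list medians were -0.91, -0.75 and -0.57 for B12, B2 and C3. Map3k3, a kinase that starts MAPK cascades, had 219, 207 and 238 RPF reads with 2198, 2306 and 2111 of total RNA, a mean of -2.99 (SE 0.10, adjusted p = 1.41e-06). Sos1, which loads RAS with GTP, had 322, 335 and 387 RPF reads with 2220, 1692 and 1689 of total RNA, a mean of -2.09 (SE 0.13, adjusted p = 1.31e-04). Map3k3 lay 7.92-fold and Sos1 4.25-fold below the median gene.

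The lowest of the list was Spred1, an inhibitor of RAS signalling, with 185, 297 and 242 RPF reads and 3094, 2724 and 2207 of total RNA (-3.15, adjusted p = 8.1e-06). Others called lower included Map3k2 (-2.29), Nf1 (-1.66), Ptpn11 (-1.50), Hras (-1.44), Braf (-1.42) and Frs2 (-1.38). They include activators and inhibitors of the cascade. Rras was the 1 called higher (1.61, adjusted p = 0.0187), which was lost without C3 (0.0888). Without B2, 7 members were called lower in place of 10.

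Against the other genotypes 13 of the 32 were lower in Nat1-/- than in Nat1+/- and 1 was higher, beside 11.2% and 8.52% of all genes. The 13 fell to 7 without C1, to 8 without A7, and to 2 without the pairing of RPF and total RNA by culture. Against WT 4 were lower, beside 1.46% of all genes, among them Map3k3, Sos1 and Rasa1. Those 4 became 2 without WT replicate 1 and 1 without WT replicate 2. Without that pairing none of the 32 was called lower than in WT. The 2 comparisons share the Nat1-/- cultures and are not independent.

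Map3k3 had 581 and 555 RPF reads in WT and 390, 541 and 437 in Nat1+/-, all above the 207 to 238 of Nat1-/-, whereas its RNA lay between the other groups (2663 and 2551 in WT, 1290 to 1903 in Nat1+/-). Its ratio differed by -1.51 ± 0.11 (SE) from Nat1+/- (adjusted p = 1.03e-04) and by -1.14 ± 0.12 from WT (adjusted p = 0.00161). Sos1 had 629 and 784 RPF reads in WT and 789 to 900 in Nat1+/-, again above Nat1-/-. It differed by -1.69 ± 0.17 from Nat1+/- (adjusted p = 3.45e-04) and by -1.32 ± 0.18 from WT (adjusted p = 0.00731), a call lost without WT replicate 2.

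Eif4g2 itself differed by -2.37 ± 0.21 from Nat1+/- (adjusted p = 2.73e-04) and by -1.80 ± 0.23 from WT (adjusted p = 0.00666), and the latter did not pass without WT replicate 2 (a difference of -1.57, adjusted p = 0.056). The test over all genes found 919 higher (8.52%) and 1210 lower (11.2%) than in Nat1+/-, together 19.7% of 10790. Against WT 25 were higher (0.232%) and 158 lower (1.46%), together 1.7%. Without the pairing of RPF and total RNA by culture these counts were 6, 73, 0 and 1. At an unadjusted p under 0.05 that unpaired limma fit gave 592 higher and 701 lower than Nat1+/-, and 44 higher and 238 lower than WT. The WT counts together are fewer than that threshold would pass among 10790 genes if none differed.

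The genes with the smallest adjusted p against Nat1+/- were Adgrl1, Atp11a, Map3k3 and Mark3 on the low side. Adgrl1, an adhesion receptor, had 376, 330 and 400 RPF reads and 4436, 4539 and 3915 of total RNA in Nat1-/-. Its ratio of -3.22, -3.45 and -2.98 lay below Nat1+/- (-1.52, -1.57 and -1.38) by 1.72 on the log2 scale (SE 0.12, adjusted p = 1.03e-04). Atp11a, a lipid flippase, was at -2.68, -2.80 and -2.63 beside -1.40, -1.36 and -1.50 in Nat1+/-, a difference of -1.28 ± 0.09 (adjusted p = 1.03e-04). Mark3, a kinase of microtubule-binding proteins, was at -1.88, -2.02 and -1.98 in Nat1-/-, -0.79 and -0.87 in WT, and -0.85, -0.89 and -0.92 in Nat1+/-. It differed by -1.07 ± 0.08 from Nat1+/- (adjusted p = 1.64e-04) and by -1.13 ± 0.09 from WT (adjusted p = 9.12e-04).

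Mprip, Rbms2 and Nudt4 joined Mark3 on the low side against WT. Mprip, which ties myosin phosphatase to actin, had 601, 484 and 501 RPF reads with 5269, 3983 and 3438 of total RNA, and its ratio of -2.79, -2.71 and -2.47 lay below the -1.44 and -1.43 of WT (difference -1.22 ± 0.11, adjusted p = 9.12e-04). Rbms2 differed from WT by -1.30 ± 0.11 and Nudt4 by -1.04 ± 0.09, both at the same adjusted p. WT and Nat1+/- stood close together for all 3 genes.

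On the high side the pattern was not the same in the 2 comparisons. Bex1, Rps27a, Taf15 and Ubb led against Nat1+/-. Bex1 was at 1.40, 1.24 and 1.14 in Nat1-/- and 0.22, 0.35 and 0.34 in Nat1+/- (difference 0.96 ± 0.09, adjusted p = 3.45e-04), but WT was at 1.32 and 1.26. Rps27a, whose protein is a fusion of ubiquitin and a ribosomal protein, also overlapped WT (0.43, 0.23 and 0.10 beside 0.03 and 0.26). Ubb, a polyubiquitin gene, was above both groups, with 0.83 ± 0.10 over Nat1+/- (adjusted p = 7.07e-04) and 0.56 ± 0.11 over WT (adjusted p = 0.0297). The latter was lost without B2 and without either WT culture. Reads of the ubiquitin genes can be shared among near-identical copies.

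Xaf1, Psg16, Ptprs and Syne2 led against WT. Xaf1, an antagonist of an inhibitor of cell death, had 1403, 1621 and 1934 RPF reads with 945, 718 and 799 of total RNA. Its ratio of 0.91, 1.50 and 1.58 was above WT (-0.66 and -0.69) by 2.01 ± 0.20 (adjusted p = 0.00119). Psg16, of the pregnancy-specific glycoprotein family, stayed among the low genes, with 119, 152 and 181 RPF reads and 1121, 1143 and 1227 of total RNA, but at -2.88, -2.58 and -2.45 it was less low than WT (-4.28 and -3.99). Ptprs, a receptor phosphatase, was at 0.02, -0.11 and -0.26 beside -1.02 and -0.99 in WT (difference 0.89 ± 0.11, adjusted p = 0.00532).

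**Figure D5:**
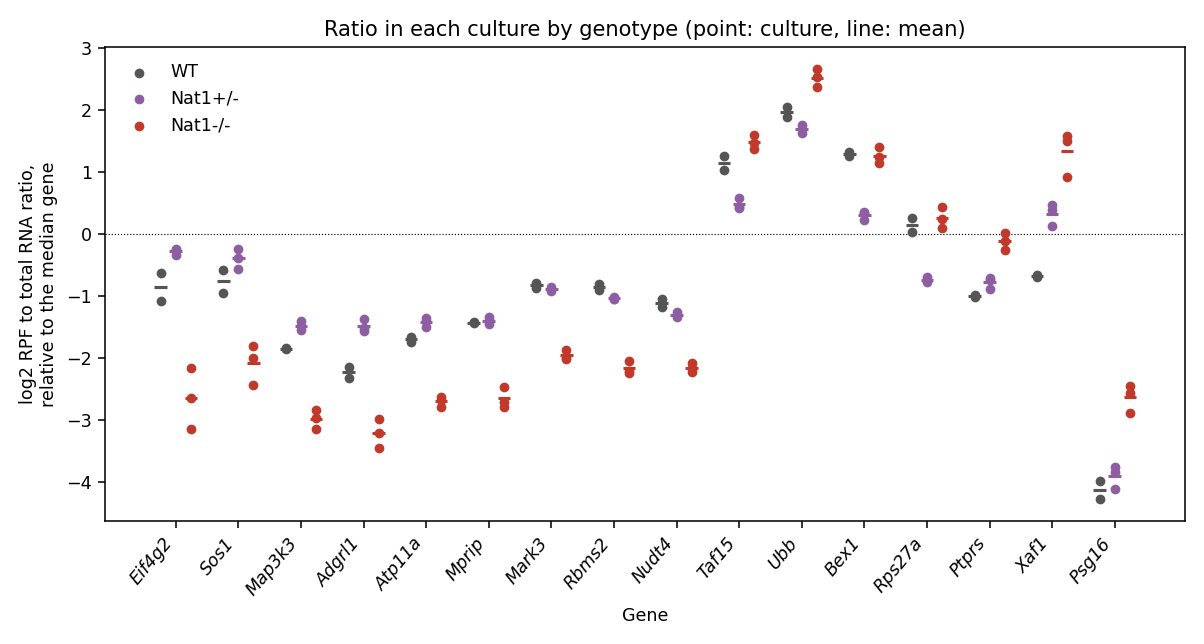
Relative log2 ratio of RPF to total RNA (vertical) in each of 8 cultures for 16 genes (horizontal). Points are cultures, short lines group means, grey WT, purple Nat1+/-, red Nat1-/-. From Eif4g2 to Nudt4 the 3 Nat1-/- clones lie below the other groups, and for Bex1 and Rps27a they overlap WT.

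Pluripotency genes were spread over the whole range. Of 20 naive factors 2 were called higher and 1 lower, beside 5.19% and 9.98% of all genes. Of the 20, 16 had means above the median gene. Klf5 had 14910, 17720 and 17370 RPF reads with 3019, 3617 and 2828 of total RNA, a mean of 2.73 (SE 0.10, adjusted p = 1.9e-06), 6.64-fold above the median gene. Its relative Klf4 had 3662, 2909 and 3056 RPF reads with 14430, 12630 and 9024 of total RNA, a mean of -1.56 (adjusted p = 0.00381, and 0.0622 without B2). These transcription factors of the same family thus lay on opposite sides. Klf4 RNA was far above WT (1263 and 1384) and Nat1+/- (1609 to 3080), and its RPF were also above theirs (410 to 526 in WT and 811 to 1876 in Nat1+/-). The ratio differed by -1.05 from Nat1+/- (adjusted p = 0.00115), and the difference of -0.40 from WT did not pass (adjusted p = 0.298). Nanog was called higher (1.34, adjusted p = 0.0203), which was lost without B2 (0.194), without C3 (0.0808) and with equal library sums (0.625).

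Of 12 general pluripotency genes 3 were called higher and 2 lower, beside 5.19% and 9.98% of all genes. Utf1, a chromatin protein of embryonic stem cells, had 11340, 7576 and 4595 RPF reads with 2838, 2385 and 890 of total RNA (mean 2.34, adjusted p = 2.79e-05). Trim71, an RNA-binding protein and let-7 target, had 5919, 5038 and 3789 RPF reads with 40520, 37620 and 27230 of total RNA (mean -2.51, adjusted p = 2.61e-06). Its RNA was above every WT and Nat1+/- culture (13360 to 18800), while its RPF overlapped theirs (3482 to 4746). The ratio differed by -0.91 from Nat1+/- (adjusted p = 2.99e-04) and by -0.68 from WT (adjusted p = 0.00731), the second lost without either WT culture. Pou5f1 and Sox2, the core factors, were not called, at -0.03 and -0.60.

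Of 28 enzymes that acetylate or methylate histones 4 were called lower and none higher, a share near the 9.98% of all genes called lower. The 4 became 2 without B2. Kmt2d, a histone H3 methyltransferase, had 1395, 1517 and 1678 RPF reads with 9853, 8988 and 6409 of total RNA (mean -2.11, adjusted p = 2.61e-04). Crebbp, an acetyltransferase, had 1167, 1121 and 1078 RPF reads with 5222, 4087 and 2788 of total RNA (mean -1.47, adjusted p = 0.0215, and 0.0903 without B2). Both differed from Nat1+/-, by -1.52 (adjusted p = 6.76e-04) and -1.82 (adjusted p = 2.73e-04). The RNA of both was above every culture of the other genotypes, at most 4090 for Kmt2d and 2704 for Crebbp. Crebbp RPF were also below them (1521 to 2056), while Kmt2d RPF overlapped (1037 to 2158). The list median was -0.72, -0.44 and -0.22 in B12, B2 and C3. In WT it was -0.50 and -0.23, among the values of the Nat1-/- clones, and in Nat1+/- it was 0.09, 0.10 and 0.22.

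Immediate early genes, whose mRNAs are short-lived, were also scattered. The counts called in this list and the cell cycle list stand beside 5.19% of all genes called higher and 9.98% lower. Among 18 measured Myc was called higher, with 2253, 1828 and 646 RPF reads and 758, 529 and 155 of total RNA (mean 2.13, adjusted p = 4.39e-05). Jund (-2.10, adjusted p = 2.79e-05) and Srf (-1.47, adjusted p = 0.00533, and 0.0923 without B2) were called lower. The cell cycle genes were mostly above the median gene, 27 of 36, with list medians of 0.70, 0.70 and 0.68. Of the 36, 4 were called higher, a count of 1 without B2 or with equal library sums and of 7 with edgeR, with the mitotic kinases Plk1 (1.91, adjusted p = 2.77e-05) and Cdk1 (1.44, adjusted p = 0.00849) highest, Cdk1 not without B2 (0.0564). E2f1, which drives entry into S phase, was the 1 called lower (-1.89, adjusted p = 2.12e-04).

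Zinc finger genes named Zfp, most of them transcription factors, were low as a group. Of 289 measured, 36 were called lower and 2 higher, and 62 had means above the median gene, where 5161 of all 10328 did. The median was -0.60, -0.43 and -0.38. The share called lower, however, was near the 9.98% of all genes. Over all genes 5.19% were called higher. The 36 became 55 with equal library sums and 17 with a minimum mean of 200. The 60 predicted genes named Gm had a median of -0.56, with 9 called lower and 2 higher, beside the same shares of all genes.

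Metabolic enzymes of glycolysis were above the median gene in 16 of 17 cases. The counts called in this list and the next ones stand beside 5.19% of all genes called higher and 9.98% lower. Eno1 (1.79, adjusted p = 5.32e-04) and Gapdh (1.58, adjusted p = 0.0011) were called higher, and Pgam1 was the exception at -1.17 (adjusted p = 0.321). In cholesterol synthesis 3 of 22 were called higher, and 1 with equal library sums, with Nsdhl (1.83, adjusted p = 2.64e-04) and Dhcr7 (1.54, adjusted p = 0.0107) highest. Insig1, the sensor that restrains the pathway, was lowest (-2.04, adjusted p = 1.09e-05), followed by Idi1 (-1.70, adjusted p = 8.81e-04). Among 28 splicing factors 2 were called higher and 1 lower, the latter Srsf10 (-1.40, adjusted p = 0.006). One of 15 selenoproteins, Selt, was called, lower at -1.46 (adjusted p = 0.00261). Of 20 collagens, laminins and integrins Sparc alone was called, higher at 1.37 (adjusted p = 0.00871, and 0.391 with equal library sums).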

How the data were processed

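RPF and total RNA libraries were made with the TruSeq Ribo Profile kit, per the labels' protocols. Per the submitters' processing notes, HTSeq 0.6.1 and DESeq2 were among the tools, beside TopHat2 2.1.0 and Bowtie2 2.2.8, cutadapt 1.9.1 and bcl2fastq 2.17, with builds mm10 and GRCm38.p4. The deposited signal is read counts per gene divided by a size factor by the authors. The part of each mRNA counted, strand and treatment of multiply mapped reads are not given in the sources used here. Dividing each column by its smallest value above 0 gave whole reads for 100% of values (tolerance 0.001). Count tests ran on these.

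The main test was limma 3.58.1 (R 4.3.3) on the per-culture log2 ratio, pseudocount 1, with treat at a 2-fold distance, Benjamini-Hochberg adjusted over 10328 genes. Genotypes were compared with limma's moderated test on the ratio of 8 cultures (10790 genes with a mean of at least 50 over them). edgeR 4.0.16 and DESeq2 1.42.0 were alternatives. Scripts were tested on simulated data. RPF and total RNA of a culture pair by clone: their deviations from the assay means correlated (0.759, 0.568 and 0.8), other pairings from -0.729 to 0.0609. p-values measure the spread between clones or cultures.

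Genes were named by rule: Eif4g2, Map3k3 and Sos1, which the study is known for; the 10 highest and 10 lowest called genes on 1 side in all clones, without predicted genes, pseudogenes, small RNAs and date-like names; the 2 highest and 2 lowest of each list; the 3 with the largest SD; and the 4 with the smallest adjusted p each way per genotype comparison. Other genes were named after their values were seen. Members and the 33 lists were chosen with earlier results of these data known. Lists have no test of their own. Of the 33, small structured RNAs and ribosomal protein pseudogenes had no measured member, and the fibroblast list had 2, neither called. The table gives symbols without coordinates, and 27 look like dates; sequences and their positions come from RefSeq. Single values of some list members are not reported here.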

Additional observations from a re-analysis of the deposited data

Results flagged for a closer look

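These ratios differed between Nat1-/- and another genotype in the test of the difference itself, and are given as log2 differences, Nat1-/- minus the other group. The lists are not complete. Over all 10790 genes 2129 differed from Nat1+/- and 183 from WT. Among the genes named above, Crebbp, Kmt2d, Klf4 and Trim71 also differed from Nat1+/-, and Ubb, Trim71 and Rasa1 from WT. A gene that is absent from the list of a comparison may still have differed in it. Lower than in Nat1+/- were Eif4g2 (-2.37), Adgrl1 (-1.72), Sos1 (-1.69), Map3k3 (-1.51), Atp11a (-1.28), Usp31 (-1.20), Metrn (-1.08), Mark3 (-1.07), Gid4 (-0.81), Cmtm4 (-0.76) and BC030336 (-0.49). Higher than in Nat1+/- were Atp6v0c (1.35), Hist1h2ah (1.14), Rps27a (1.00), Taf15 (1.00), Bex1 (0.96), Hist1h2ap (0.85), Ubb (0.83), Wdr77 (0.62) and Hist1h2af (0.58).

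Lower than in WT were Eif4g2 (-1.80), Sos1 (-1.32), Rbms2 (-1.30), Mprip (-1.22), Gid4 (-1.14), Map3k3 (-1.14), Mark3 (-1.13) and Nudt4 (-1.04). Higher than in WT were Xaf1 (2.01), Psg16 (1.50), Syne2 (1.06) and Ptprs (0.89).

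Several rest on single cultures. Against Nat1+/-, Atp6v0c was lost without A7, B4 or B2, Cmtm4 without A7 or B2, and Hist1h2af without A7 or C1. Wdr77, BC030336 and Hist1h2ap were each lost without at least 4 of the 6 clones, 1 at a time. Against WT, Eif4g2, Gid4 and Sos1 were lost without WT replicate 2.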

How the results depend on the processing

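Depth and 3 clones limit precision, and near-identical copies limit gene identity. Of 536 higher and 1031 lower genes, edgeR called all again (697 and 1224 in all) and DESeq2 473 and 936 (474 and 937 in all). Testing any distance from the median gene gave 3977 higher and 3910 lower. Equal library sums gave 249 higher and 1464 lower, the ratio of summed reads 246 and 1480, and a minimum mean of 200 gave 320 higher. No gene called in the main analysis was called the opposite way in any of these.

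Without the replicate block, which pairs RPF and total RNA of a culture, 147 higher and 519 lower genes were called in Nat1-/-. Against Nat1+/- that unpaired fit gave 6 higher and 73 lower (919 and 1210 paired), and against WT 0 and 1 (25 and 158 paired). All calls of named genes against WT except Mark3 were lost without it. Members called also fell, from 29 to 16 histones, 25 to 12 respiratory chain genes, 14 to 2 proteasome subunits and 36 to 17 Zfp genes, and from 10 to 5 lower RAS and MAPK genes.

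Leaving out each culture in turn gave 357 to 574 higher and 789 to 1057 lower in Nat1-/-, the lowest counts without B2. Against Nat1+/- it gave 218 to 1346 higher and 600 to 1606 lower, lowest without A7 and highest without C3. Against WT it gave 5 to 61 higher and 10 to 235 lower. Where this left WT with 1 culture, that culture was assumed to vary like the other groups. 
Medians of gene lists moved with the centring by 0.24 downwards. With equal library sums, and with the ratio of summed reads in brackets, they were 0.54 (0.54) for mitochondrial ribosomal proteins, 0.92 (0.91) for respiratory chain nuclear-encoded, -0.68 (-0.69) for zinc finger genes named Zfp, 0.80 (0.80) for proteasome subunits, 0.86 (0.85) for CCT chaperonin, 0.42 (0.41) for initiation factors, -0.081 (-0.087) for eIF4G family and cap-binding, 0.67 (0.66) for aminoacyl-tRNA synthetases cytosolic. They were 0.50 (0.49) for glycolysis enzymes, 0.24 (0.23) for cholesterol synthesis, 0.26 (0.25) for ER chaperones, 0.47 (0.46) for cytosolic chaperones, -0.51 (-0.52) for upstream open reading frame regulated, -1.26 (-1.26) for polyamine and frameshift genes, -0.21 (-0.22) for iron-responsive mRNAs, -0.24 (-0.25) for selenoproteins. The rest were 0.024 (0.018) for splicing factors SRSF and TRA2, -0.25 (-0.25) for immediate early genes, 0.29 (0.28) for naive pluripotency, -0.19 (-0.19) for general pluripotency, -1.004 (-1.01) for receptor RAS and MAPK cascade, 0.49 (0.48) for cell cycle core, 0.31 (0.30) for collagens laminins and integrins, -0.80 (-0.80) for predicted genes named Gm. A minimum mean of 10 gave list medians of 0.54 for ER chaperones, 0.016 for general pluripotency, 0.77 for cell cycle core. A minimum mean of 200 gave list medians of 0.64 for mitochondrial ribosomal proteins, 0.93 for proteasome subunits, 0.047 for eIF4G family and cap-binding, 0.80 for aminoacyl-tRNA synthetases cytosolic, 0.57 for ER chaperones, 0.60 for cytosolic chaperones, -0.29 for immediate early genes, -0.059 for general pluripotency, -0.96 for receptor RAS and MAPK cascade, 0.64 for cell cycle core, -0.20 for predicted genes named Gm. No filter on low values gave list medians of -1.23 for mitochondrially encoded mRNAs, 0.075 for eIF4G family and cap-binding, -0.46 for upstream open reading frame regulated, -0.020 for general pluripotency, -0.21 for predicted genes named Gm. Leaving out each culture gave ranges of 0.49 to 0.56 for ER chaperones, 0.69 to 0.74 for cell cycle core, -0.62 to -0.47 for predicted genes named Gm, -1.03 to -0.94 for polyamine and frameshift genes, -0.16 to 0.36 for cytosolic ribosomal proteins, -0.23 to 0.28 for elongation factors.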
